A study of Homo sapiens with 7 samples.

Results

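Open chromatin of anterior foregut endoderm (hAFE, replicates 1 and 2) was compared with that of pharyngeal foregut endoderm (hPFE, replicate 1), which makes 3 of the 7 ATAC-seq libraries of the series. The libraries were chosen by the stage named in their titles. All come from the established human embryonic stem cell line H1, differentiated in steps, and the labels name no genetic change. The other 4 libraries are undifferentiated stem cells (hESC, replicates 1 and 2) and definitive endoderm (hDE, replicates 1 and 2). Their titles mark them as a re-analysis of older data, and they are used here to show where a region had been open before. ATAC-seq reads open chromatin from the sites where the Tn5 transposase cuts, and the authors deposited 1 list of peaks per library. The labels do not say whether the hAFE replicates are separate cultures, and hPFE has no replicate. No test between the stages was therefore possible, and every difference below describes these libraries.

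The anterior foregut is the front part of the gut tube of the embryo, and its endoderm gives rise to the pharynx, thyroid, lung and oesophagus. Pharyngeal endoderm forms outpocketings, the pharyngeal pouches, from which the thymus and the parathyroid glands arise. Pouch endoderm is known for the transcription factors PAX9, PAX1, TBX1, EYA1 and HOXA3, whereas FOXA2 and SOX2 mark the foregut more widely. Regulatory DNA is usually open in the cells that use it, and much of it lies far from the genes.

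The 50000 strongest regions of each library by −log10 p are called strict below, and 83126 regions were strict in at least 1 of the 3 libraries. A region was gained where it was strict in hPFE and had no deposited peak in either hAFE library. It was lost where it was strict in both hAFE libraries and had no peak in hPFE, and stable where it was strict in all 3. Heights are given as relative heights: the number of Tn5 cut sites at the summit over the genome-wide background of its library, divided by the median of that value over the stable regions. A typical stable region thus has a relative height of 1. Positions are on hg38, and sequences were taken from RefSeq (GRCh38.p14).

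Sequences could be read at promoter windows, the 250 bases before and the 50 bases after a RefSeq transcript start. Of 12688 windows of protein-coding genes with a region strict in at least 1 of the 3 libraries, 41 (0.323%) overlapped a gained region and 51 (0.402%) a lost region. The gained windows often held the letters TGANTCA on either strand, a loose form of the AP-1 core site (TGAGTCA or TGACTCA). AP-1 is the dimer of FOS and JUN proteins that responds to growth and stress signals. The 4 gained promoter windows shown here have the highest peaks in hPFE among the gained windows that hold the letters TGANTCA. FABP7 is shown as a lost window without them. All were chosen after their values were seen. Each line gives the 250 bases before the start, 5′ to 3′ on the strand of the gene, with the AP-1 letters in capitals.

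SERPINB7: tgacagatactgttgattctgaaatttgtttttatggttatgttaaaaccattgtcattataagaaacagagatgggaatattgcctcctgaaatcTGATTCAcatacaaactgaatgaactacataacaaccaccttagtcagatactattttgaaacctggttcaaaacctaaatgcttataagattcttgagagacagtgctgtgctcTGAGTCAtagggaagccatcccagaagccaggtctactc

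GLI2: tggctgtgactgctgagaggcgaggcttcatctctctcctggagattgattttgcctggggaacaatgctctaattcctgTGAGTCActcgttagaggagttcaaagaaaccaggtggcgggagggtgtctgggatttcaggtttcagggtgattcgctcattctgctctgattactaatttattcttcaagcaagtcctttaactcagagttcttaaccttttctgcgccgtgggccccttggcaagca

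RTN4: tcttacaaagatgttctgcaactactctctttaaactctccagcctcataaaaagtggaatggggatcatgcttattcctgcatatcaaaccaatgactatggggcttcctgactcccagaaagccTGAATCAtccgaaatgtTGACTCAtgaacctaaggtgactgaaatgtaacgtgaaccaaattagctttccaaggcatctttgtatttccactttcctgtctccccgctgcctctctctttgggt

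CPA4: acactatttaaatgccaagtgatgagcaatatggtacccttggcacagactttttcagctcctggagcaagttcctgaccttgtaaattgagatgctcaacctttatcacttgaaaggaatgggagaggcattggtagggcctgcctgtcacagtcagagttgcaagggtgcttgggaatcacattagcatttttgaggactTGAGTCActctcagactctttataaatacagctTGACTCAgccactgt

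FABP7: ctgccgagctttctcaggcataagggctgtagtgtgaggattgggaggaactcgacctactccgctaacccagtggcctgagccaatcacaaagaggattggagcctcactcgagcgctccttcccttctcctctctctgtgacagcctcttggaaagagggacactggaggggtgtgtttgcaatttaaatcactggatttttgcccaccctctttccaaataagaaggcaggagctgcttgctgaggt

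These bases are chr18:63775168-63775417 for SERPINB7, chr2:120792031-120792280 for GLI2 and chr7:130292911-130293160 for CPA4, all on the plus strand. They are chr2:55051273-55051522 for RTN4, on the minus strand, and chr6:122779466-122779715 for FABP7, on the plus strand. A gene can have several transcript starts, and the SERPINB7, GLI2 and RTN4 windows lay more than 1 kb from either end of the gene. Their values describe these windows and not every start of the gene. SERPINB7 is a serine protease inhibitor, and its window had no peak in hAFE or in any earlier library and a relative height of 1.79 in hPFE. The window of RTN4 (Nogo, an inhibitor of neurite growth) stood at 1.35 and that of CPA4, a carboxypeptidase, at 1.32, also without a peak in the 6 other libraries. The window of GLI2, a transcription factor of hedgehog signalling, reached 1.49 in hPFE and had no peak in hAFE. It had been open earlier, with 0.219 in hESC replicate 2 and 0.589 and 0.768 in the hDE libraries. FABP7, a fatty acid binding protein, had 0.843 and 1.40 in hAFE replicates 1 and 2, from 0.609 to 1.67 in the 4 earlier libraries, and no peak in hPFE.

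From hAFE to hPFE, 10959 regions were gained (13.2% of the 83126) and 5418 were lost (6.52%), while 22762 (27.4%) were stable. Loss required 2 strict libraries and gain only 1, which favours gains. With a single hAFE library on its side, 13217 regions were gained and 10026 lost against hAFE replicate 2, and 13806 were gained and 11269 lost against replicate 1. Between the hAFE replicates the same count gave 653 regions in one direction and 889 in the other, far fewer than between the stages. The excess of gains depends on what is called strict: a rule on summit height (10 times background or more) left 4470 gains and 8036 losses, and a −log10 q limit of 5 left 26843 and 27802.

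Peaks stood out less from the background in hPFE than in hAFE. The median stable region was 54.5 and 33.8 times the background in hAFE and 17.1 times in hPFE, and that background was 2.22 and 3.85 cut sites in hAFE and 5.66 in hPFE. Each of the 3 lists held 298508 to 299374 peaks, near a limit of 300000, and the weakest deposited summit was 3.15 and 2.60 times the background in hAFE and 2.47 times in hPFE. Of the gained regions, 10325 (94.2%) were at least 2 times as high over background as the weakest summit of both hAFE libraries. All 5418 lost regions met the same condition towards hPFE, which the strict rule for hAFE already ensured. Both conditions use height over background and not relative height, so they do not allow for the lower peaks of hPFE. Gained regions had a median relative height of 0.526 in hPFE (10th to 90th percentile 0.381 to 0.918), and lost regions 0.529 and 0.438 in the hAFE replicates. As in any bulk sample, fewer cells with an open region and less opening per cell cannot be told apart.

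A second set of calls used the 57705 regions with a peak in all 3 libraries and asked where hPFE was at least 2 times above or below both hAFE libraries. By relative height, 6748 (11.7%) were higher and 3645 (6.32%) lower in hPFE. The weakest deposited summit was higher in hPFE than in either hAFE library by relative height. A region weak in hAFE could therefore be called higher but not lower, which favours higher calls. The hAFE replicates differed by 2 times at 4338 (7.52%) and 3973 (6.89%) of the same regions, so a 2-fold difference at a single region is not far outside their spread. Against 1 hAFE library at a time, 9981 (17.3%) and 9463 (16.4%) regions were higher in hPFE and 6906 (12.0%) and 6596 (11.4%) lower. Higher calls made up 64.9% of all calls by relative height and 54.5% after quantile normalization. Without centring on the stable regions the median log2 ratio of hPFE to hAFE was −1.29, and after centring it was 0.03. The height differences below are relative to that shift.

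Most gained regions had no peak at any earlier stage, while most lost regions had been open before hAFE. No peak was present in any of the 4 earlier libraries at 8095 gained regions (73.9%) and at 772 lost regions (14.2%). At least 1 hDE library had a peak at 17.8% of gained and 80.1% of lost regions, and at least 1 hESC library at 14% and 59.4%. All 4 earlier libraries had a peak at 101 gained regions (0.922%), 1791 lost regions (33.1%) and 20271 stable regions (89.1%). The contrast kept its direction with 1 hAFE library, with the shares somewhat closer. Without hAFE replicate 1, 69.2% of 13217 gained and 17.9% of 10026 lost regions had no earlier peak, and without replicate 2, 67.8% of 13806 and 20.1% of 11269. The hESC and hDE libraries come from another series, so stage and source cannot be told apart in these shares.

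**Figure D1:**
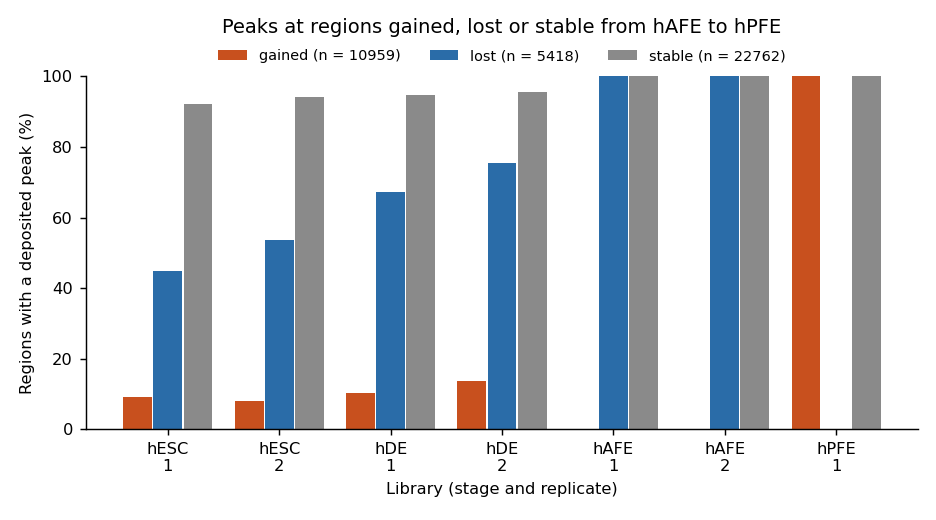
Share of gained, lost and stable regions (percent, vertical axis) with a deposited peak in each of the 7 libraries (horizontal axis); the hAFE and hPFE values are fixed by the definitions. In the 4 earlier libraries the gained regions lie between 7.97% and 13.7%, the lost regions between 44.9% and 75.5% and the stable regions between 92.3% and 95.6%.

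Most of the turnover lay away from gene ends, though much of it lay inside genes. A protein-coding gene was overlapped by 46.2% of gained and 44.8% of lost regions, against 73.5% of stable regions and 55.2% of all. An end of a protein-coding gene lay within 1 kb of 1.83% of gained and 2.84% of lost regions, against 49.4% of stable regions and 17.4% of all 83126. Of the 14437 regions that close to a gene end, 201 (1.39%) were gained and 154 (1.07%) lost. The median distance to the nearest gene end was 71542 bp for gained and 62161.5 bp for lost regions, 1172 bp for stable regions and 30780 bp for all. No gene end lay within 100 kb of 41.7% of gained and 38.1% of lost regions. Gained regions were narrower, with a median of 435 bp against 585 bp for lost and 1031 bp for stable regions.

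Gains also clustered. Windows of 500 kb with any gained region held a median of 2, but chr11:104500001-105000000, at the inflammatory caspase genes CASP4 and CASP5, held 13 gained among 23 regions. The window chr7:85000001-85500000 at SEMA3D held 12 of 20 and chr2:180500001-181000000 at UBE2E3, a ubiquitin-conjugating enzyme, 10 of 23. The most losses in 1 window were 8 of 33 regions at chr20:10500001-11000000, near the Notch ligand gene JAG1, where 6 others were gained. These windows were chosen after their counts were seen, and clustering beyond the uneven density of regions was not tested.

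The stage labels were checked against marker genes. FOXA2, SOX2, FOXA1, EPCAM and CDH1, markers of foregut epithelium, had open gene ends in all 3 libraries, and together they had 28, 25 and 23 strict regions in hAFE replicates 1 and 2 and hPFE. The 7 markers of pharyngeal endoderm had 27, 31 and 32, with 2 regions gained and 6 lost, and the ends of PAX9 had no peak in hAFE and 0.515 in hPFE. The 4 markers of hAFE, HHEX, OTX2 and FOXE1 among them, had 14, 17 and 18, with 6 regions gained and 1 lost. Gains thus exceeded losses at the hAFE markers and losses exceeded gains at the pharyngeal ones. Of the 4 markers of undifferentiated cells, POU5F1 had 0.0992 and 0.115 at its ends in hAFE and no peak in hPFE. The ends of NANOG had 0.0826, 0.246 and 0.299 in hAFE replicates 1 and 2 and hPFE, those of PRDM14 0.240, 0.300 and 0.474, and those of DPPA4 a peak only in hPFE, at 0.165. By strict regions the 2 stages were therefore not separated by their own markers, whereas single PAX9, PAX1 and HOX regions differed as described below.

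Markers of other cell types were counted in the same way. Surface ectoderm markers (TP63, KRT5 and GRHL3) had 6, 8 and 16 strict regions in hAFE replicates 1 and 2 and hPFE. Among their regions 7 were gained, 4 at TP63 and 3 at GRHL3, and 1 at TP63 was lost. KRT5 had 1, 1 and 0 strict regions. The ends of TP63 had 0.124 and 0.115 in hAFE and no peak in hPFE, while those of KRT5 had 0.132, 0.131 and 0.289. The ends of GRHL3 were higher in hPFE, at 1.63, than in either hAFE library. Endothelium and blood markers had 20, 18 and 25, with 7 of their 10 gained regions at RUNX1. The ends of PTPRC had no peak in any of the 3 and those of CDH5 only in hPFE, at 0.299, while TAL1 had 0.149, 0.185 and 0.412 and KDR 0.620, 1.07 and 0.670. Cardiac and smooth muscle markers had 17, 13 and 18, with all 7 gained regions at MYOCD. Mesenchyme markers had 13, 16 and 13. The ends of PRRX1 and COL3A1 had no peak, while TWIST1 had 0.264, 0.600 and 0.381, COL1A2 0.603, 0.285 and 0.206, and PDGFRA 0.455, 0.831 and 0.433. By strict regions, neural crest markers had 16, 15 and 13, neural ectoderm 9, 13 and 7, and mesothelium 6, 8 and 4. The part of such cells in the gained and lost regions was not tested.

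Regions were given to the closest end of a protein-coding gene up to 100 kb away, which leaves 60475 regions, of which 6385 were gained (10.6%) and 3352 lost (5.54%). Semaphorins, ephrins and their receptors, which guide axons and migrating cells, had the highest share of gained regions among 26 gene lists, 41 of 259 (15.8%), with 18 lost (6.95%). That rank does not hold throughout: their gained share was 8.88% with gene ends within 50 kb and 8.26% with 25000 strict regions, against 15.6% and 14.8% for mesenchyme and fibroblast genes. Among the 185 regions of the latter 29 were gained (15.7%) and 13 lost, and among the 212 of the BMP pathway 31 (14.6%) and 17. Hippo pathway genes, which restrain growth and respond to cell contact, had 22 of 176 gained (12.5%) and 4 lost (2.27%). Genes of surface ectoderm and stratified epithelium had 18 of 146 gained and 8 lost, FGF pathway genes 25 and 17 of 187, and WNT pathway genes 34 and 21 of 299.

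At the other end, pluripotency genes had 6 gained and 9 lost of 133 regions, definitive endoderm genes 8 and 14 of 154, and mesothelium and urogenital genes 10 and 11 of 116. These 3 lists were the only ones of the 26 with more lost than gained regions. The order for definitive endoderm was the same under each of the 7 other settings run for the lists, while for pluripotency genes it was 2 gained and 1 lost with 25000 strict regions. For mesothelium and urogenital genes it turned under 3 settings, to 4 gained and 3 lost with 25000 strict regions, 36 and 29 with 100000, and 14 and 13 without hAFE replicate 2. Housekeeping genes had 5 gained and 2 lost of 72. Over the lists the gained share ran from 4.51% to 15.8% and the lost share from 0% to 9.48%, and 11 lists lay above the gained share of all regions near genes. The order of gained and lost regions within a list follows the definition of strict: semaphorins and ephrins had 18 gained and 30 lost with summits of at least 10 times the background.

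**Figure D2:**
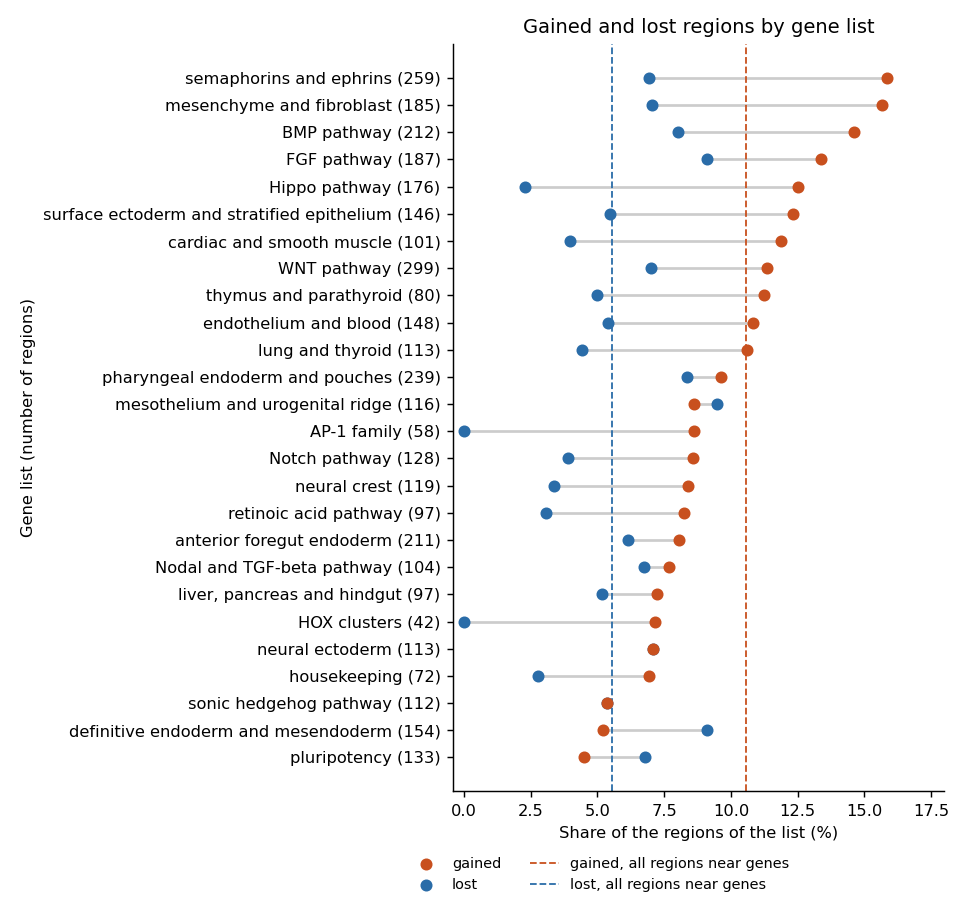
Share of the regions of each of 26 gene lists (rows, number of regions in brackets) that were gained (orange) or lost (blue) from hAFE to hPFE (horizontal axis, percent), with dashed lines at the shares of all regions within 100 kb of a gene end, 10.6% gained and 5.54% lost. Semaphorins and ephrins have the highest gained share (15.8%), pluripotency genes the lowest (4.51%), and the gained and lost points coincide for neural ectoderm and for the sonic hedgehog pathway.

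SEMA3D, a secreted semaphorin, had the most gained regions of any gene, 8 of 16, and none lost. MYOCD (myocardin, a coactivator of heart and smooth muscle genes) had 7 of 17, and RUNX1, needed for blood stem cells, 7 of 19, with none lost at either. SETBP1, PTHLH, EFNA5, PRAG1, PDGFC, MARCHF1 and RHOBTB1 had 6 each. PTHLH encodes the parathyroid hormone-like hormone, EFNA5 an ephrin ligand and PDGFC a platelet-derived growth factor. With gene ends within 50 kb, SEMA3D had 3 gained regions, MYOCD 6, RUNX1 4 and PTHLH 4. With 25000 strict regions they had 2, 2, 3 and 3.

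Several of these regions were about as high in hPFE as a typical stable region. The strongest at SEMA3D lay inside the gene (chr7:85065903-85066366), with a relative height of 0.825 in hPFE (95% exact Poisson interval 0.654 to 1.03, for counting error only), no peak in hAFE or hDE and 0.190 in hESC replicate 1. At PTHLH it lay 9107 bp outside the gene (chr12:27981840-27982348) at 1.21. At SETBP1, a nuclear protein that binds SET, it lay inside the gene (chr18:44733318-44733691) at 1.36. At RUNX1 it lay inside the gene (chr21:34950609-34951321) at 0.928. The PTHLH, SETBP1 and RUNX1 regions had no peak in the 6 other libraries. At MYOCD it lay 28484 bp outside the gene (chr17:12636825-12637406) at 0.969, with 0.238 and 0.219 in hESC.

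Gained regions at other pathway genes were of like height. SMAD3, which carries TGF-beta signals into the nucleus, had 2 of 16 regions gained and none lost, and of its 15 regions with a peak in all 3 libraries 6 were higher and none lower. Its strongest gained region (chr15:67150110-67150828) stood at 1.40 in hPFE and at 0.244 and 0.299 in hDE. TGFB2, a TGF-beta ligand, had 4 gained of 13 with the strongest at 1.05. BMP5, a BMP ligand, had 4 of 10 with the strongest at 0.784, and CDH2 (N-cadherin) 4 of 15 with the strongest at 1.27. TP63, the epithelial regulator, had 4 gained of 11, and the strongest (chr3:189572063-189572790) stood at 1.1 with no peak elsewhere in the series. AMOTL1 and FRMD6 of the Hippo pathway had 3 gained each, at up to 1.07 and 0.876.

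Some of the strongest gains lay near gene ends. The region at the start of SIN3A, a scaffold of histone deacetylase complexes, stood at 1.72 in hPFE without a peak in hAFE, but hESC replicate 2 and both hDE libraries had it at 1.14, 1.25 and 0.898. DMBT1, a mucosal scavenger protein, had 1.59 at 330 bp from its end and 0.142 in hDE replicate 1. PLD5 had 1.49, TNFRSF12A, the receptor of the cytokine TWEAK, 1.39, and PXYLP1 1.19, with no peak in any other library. Over the local background, the deposited fold enrichment in hPFE was only 2.61 at SIN3A and 2.75 at TNFRSF12A. It was 11.4 at DMBT1, 13.5 at PLD5 and 15.1 at PXYLP1. The SIN3A and TNFRSF12A gains thus stood out little from their surroundings, and these genes also had 3 and 1 stable regions.

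The genes with the most lost regions had fewer of them. PLCB1, a phospholipase C, had 5 lost and 2 gained of 14, and IGSF11, a cell adhesion gene, 5 lost and 3 gained of 13. ROR1 and ROR2, receptors of noncanonical WNT signals, had 4 lost and 3 gained each, of 16 and 21. STARD13, PKNOX2, WT1, UNC13C, PCDH9 and EYA1 had 4 lost each. At ROR1 the strongest lost region lay inside the gene (chr1:64162081-64162630), with 1.21 and 1.09 in hAFE, 0.213 and 0.571 in hDE and none in hESC. At WT1, a zinc finger factor of mesothelium and kidney, it lay 28613 bp outside the gene (chr11:32358741-32359162), with 0.802 and 1.85 in the hAFE replicates, more than 2 times apart. At BNC2, a zinc finger gene, it stood at 1.62 and 1.57 in hAFE (chr9:16432435-16433063) and at 0.272 in hDE replicate 2.

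The strongest losses near gene ends were at RGS9BP (2.15 and 1.78 in hAFE), RC3H1 (1.90 and 1.39), SERP2 (1.54 and 1.04) and PKDCC (1.45 and 1.39), a secreted kinase of skeletal development. All 4 were open in both hDE libraries, from 0.995 to 1.92. HDC, the enzyme that makes histamine, had 1.32 and 1.14 in hAFE and no peak in any other library. HHIP, which binds and restrains hedgehog ligands, had 3 lost regions of 10, the strongest 3450 bp from its end (chr4:144649606-144650165) at 1.19 and 1.42 in hAFE and 1.25 and 1.46 in hDE.

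The pharyngeal genes did not go in 1 direction as a group. The list of 30 genes had 239 regions, of which 23 were gained (9.62%) and 20 lost (8.37%). Among its 193 regions with a peak in all 3 libraries, 33 were higher in hPFE (17.1%, against 9.64% of all 45886 such regions near genes) and 15 lower (7.77%, against 5.35%). The median log2 ratio of the list was 0.16, against 0.02 over all. Under quantile normalization 29 were higher and 19 lower. Thymus and parathyroid genes, later products of the pouches, had 9 gained and 4 lost of 80 regions.

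PAX9, a paired-box factor of the pouches, had 2 gained and 3 higher regions and neither a lost nor a lower one. The region with the largest height lay 88217 bp from the gene (chr14:36767579-36768353), with relative heights of 0.149 and 0.292 in hAFE and 1.45 in hPFE (interval 1.22 to 1.71). It had been open before, at 0.508 and 1.15 in hDE and 0.357 and 0.281 in hESC. A neighbour (chr14:36773088-36773492) had 0.198 and 0.331 in hAFE and 1.20 in hPFE, after 0.985 and 1.56 in hDE. The remaining one (chr14:36717336-36717732) had 0.0661 and 0.115 in hAFE and 0.381 in hPFE, after 0.741 and 1.19 in hDE. All 3 were lower in both hAFE libraries than in both hDE libraries and in hPFE.

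PAX1, its close relative, had no gained region and 3 higher ones. At 39283 bp (chr20:21665856-21666381) the heights were 0.0744 and 0.100 in hAFE and 0.856 in hPFE, with 0.146 in hDE replicate 2. At 43165 bp (chr20:21761646-21762169) they were 0.0992 and 0.115 in hAFE and 0.866 in hPFE, with no earlier peak. The third, 7324 bp from the gene (chr20:21725805-21726445), had 0.223 and 0.162 and then 0.907. The log2 ratios were 3.31, 3.02 and 2.26, at regions picked because hPFE was at least 2 times above both hAFE libraries. At the first 2 the hAFE heights were near the lowest that the lists hold. The gene end was at 0.496 and 0.615 in hAFE and 0.918 in hPFE, short of 2 times. TBX1, a T-box factor needed for the pouches, had 0.504 and 0.277 at its gene end in hAFE and 0.773 in hPFE, also short of 2 times both.

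EYA1, a transcriptional coactivator and phosphatase, had 4 of 9 regions lost, none gained, 1 lower and 1 higher. A lost region inside the gene (chr8:71520167-71520828) had 0.603 and 0.623 in hAFE and 1.09 and 1.55 in hDE. The lower one, also inside (chr8:71218388-71219400), had 0.727 and 0.715 in hAFE and 0.165 in hPFE, after 1.76 and 1.95 in hDE. The higher one (chr8:71173421-71173987) had 0.0826 and 0.138 in hAFE and 0.639 in hPFE. NKX2-3, a homeobox factor of the pharynx, had 1 of 9 regions lost and 2 of 9 with a peak in all 3 libraries higher, and its start was level at 1.75 and 1.68 in hAFE and 1.65 in hPFE. ISL1, a homeobox factor of the pharynx and heart, had 1 region in each of the gained, lost and higher groups.

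Among the foregut genes, FOXA2 and SOX2 had neither gained nor lost regions and 1 lower region each. The gene end of SOX2 had 0.760 and 1.19 in hAFE and 1.00 in hPFE, and that of FOXA2 1.63 and 1.59 and then 0.990. A FOXA2 region at 89560 bp (chr20:22490360-22491438) had 1.44 and 1.36 in hAFE and 0.474 in hPFE. GATA6, a zinc finger factor of endoderm, had 1 gained and 2 higher regions. One of them, 21032 bp from the gene (chr18:22223560-22224196), had 0.190 and 0.254 in hAFE and 1.79 in hPFE, and at most 0.346 at earlier stages. FOXE1, a thyroid factor, had 2 gained regions, and its gene end stood at 0.678 and 0.615 in hAFE and 1.41 in hPFE. NKX2-1, the other thyroid and lung factor, had 1 gained region, at 1.05 (chr14:36478709-36479221), and 1 lost. HHEX, a homeobox factor of foregut endoderm, had 1 lower region.

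**Figure D3:**
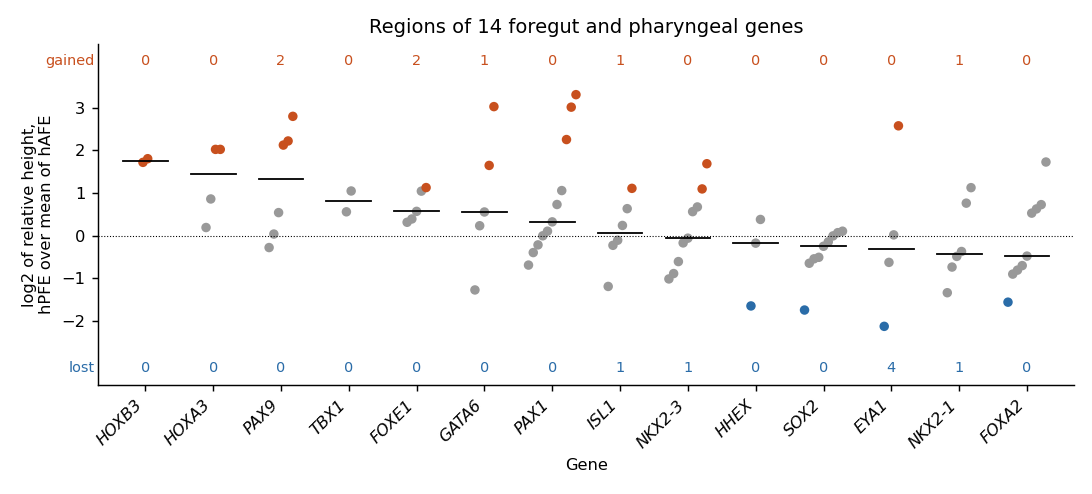
log2 ratio of relative height, hPFE over the mean of the hAFE replicates, at each region with a peak in all 3 libraries, for 14 named genes, with the median of each gene as a bar, regions at least 2 times above both replicates in orange and below both in blue, and the numbers of gained and lost regions above and below. HOXB3, HOXA3 and PAX9 have the highest medians (1.76, 1.44 and 1.33) and FOXA2 the lowest (−0.48).

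The HOX clusters, whose genes set position along the body axis, had higher peaks in hPFE at many regions at once. Of 42 regions strict in at least 1 of the 3 libraries, 3 were gained (7.14%) and none lost. The gained share was below the 10.6% of all regions near genes, of which 5.54% were lost. Of the 45 with a peak in all 3, 10 were higher in hPFE (22.2%, against 9.64% of all such regions near genes). None was lower, against 5.35% of all, and 37 had a log2 ratio above 0. The limit on lower calls at regions weak in hAFE holds here too. The median was 0.63, the highest of the 26 lists, and 0.56 and 0.48 without hAFE replicate 1 or 2. By cluster it was 0.75 at HOXA, 0.67 at HOXB, 0.94 at HOXC and 0.43 at HOXD, with 4, 4, 2 and 0 regions higher. Quantile normalization gave a median of 0.50, with 10 regions higher and 2 lower. Without centring the median was −0.69, so on that scale HOX peaks were lower in hPFE, but by less than the −1.29 of all regions.

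The higher regions lay mainly at anterior and central HOX genes. The region over an end of HOXA4 (chr7:27130198-27131465) had 0.132 and 0.285 in hAFE and 0.835 in hPFE (interval 0.663 to 1.04), after 0.538 and 0.717 in hDE and 0.571 and 0.658 in hESC. Inside HOXA3 a region (chr7:27108526-27108859) had 0.107 and 0.208 in hAFE and 0.608 in hPFE. Inside HOXB3 another (chr17:48585239-48586098) had 0.198 and 0.246 in hAFE and 0.773 in hPFE, after 0.863 and 0.315 in hDE. Near HOXA5 a region with 0.132 and 0.115 in hAFE and 0.649 in hPFE (chr7:27136441-27136706) lay beside a gained one (chr7:27135853-27136283) at 0.856 that had no peak in the 6 other libraries. HOXC13, a posterior gene, also had a higher region (chr12:53939513-53939999), at 0.446 and 0.185 in hAFE and 1.02 in hPFE. An exception among the strong regions lay 5875 bp from HOXB1 (chr17:48522067-48522651), with 1.37 and 1.09 in hAFE and 0.546 in hPFE, which was 2 times below 1 hAFE replicate but not both. These single regions were chosen after their values were seen.

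All 10 higher HOX regions had a peak in hESC replicate 2, from 0.240 to 0.767. A higher call needs a peak in both hAFE libraries, so a peak before hPFE is fixed by the definition for all 10.

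**Figure D4:**
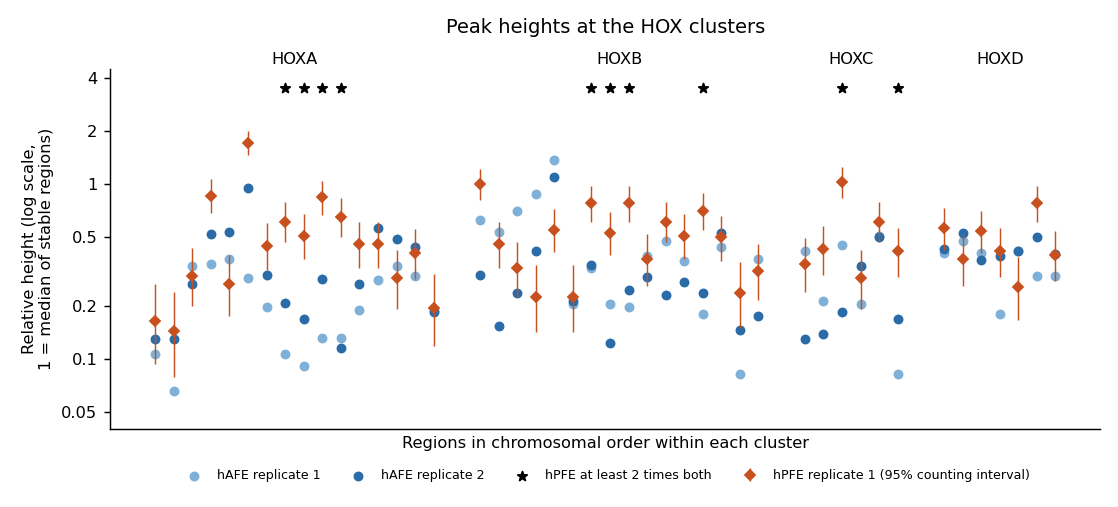
Relative height of the HOX regions in the hAFE replicates and in hPFE, by cluster in chromosomal order (vertical axis logarithmic, 1 is the median of stable regions); bars are 95% counting intervals of hPFE and stars mark regions at least 2 times above both hAFE replicates. Of the 45 regions with a peak in all 3 libraries, 37 have a log2 ratio of hPFE to hAFE above 0, with medians of 0.75 (HOXA), 0.67 (HOXB), 0.94 (HOXC) and 0.43 (HOXD).

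The AP-1 letters set the gained windows apart from the others in count. TGANTCA was present in 6.47% of all 19617 protein-coding windows, in 21 of the 41 gained (51.2%), in 2 of the 51 lost (3.92%) and in 3.82% of the stable windows. Windows whose region was at least 2 times higher in hPFE held it in 22.5% of 191 and lower ones in 5.44% of 147. Windows of other genes, which were not used for the first count, held it in 11.4% of 10450, in 44 of 75 gained (58.7%) and in 6.98% of 43 lost. The share in gained protein-coding windows ran from 30.6% to 57.1% over the 9 other definitions of a gained region, which were added after the data were seen, and in lost windows from 0% to 6.39%.

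The letters lay near the peak summits. The nearest match was a median of 16 bp from the hPFE summit, and 16 of 21 lay within 50 bp. In the sequences printed above the first match was 28 bp from the summit at GLI2, 21 bp at RTN4, 53 bp at CPA4 and 131 bp at SERPINB7, which has a second match. The first matches at RTN4 and SERPINB7 are TGAATCA and TGATTCA, which fit the loose form only. Gained windows had a median GC content of 44%, against 49.3% in lost, 66.7% in stable and 62% in all protein-coding windows. The part of GC content in the motif shares was not tested. No earlier library had a peak at 73.9% of all gained regions. The same held for 13 of the 21 gained windows with the letters, so it was not particular to them. Among these 13 are windows of SPRR3, a cornified envelope protein, at 0.392, SPINK6, a protease inhibitor of skin, at 0.443, and SFTPA2, a lung surfactant protein, at 0.649. A window of SMAD7, an inhibitor of TGF-beta signals, was gained at 1.36 without the letters. These windows were picked after their values were seen.

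The genes of the AP-1 family themselves had 58 regions, of which 5 were gained (8.62%) and none lost. Of all regions near genes 10.6% were gained, a larger share, and 5.54% lost. Over 47 AP-1 family regions the median log2 ratio was 0.47, against 0.02 over all. Of the 47, 3 were higher (6.38%, against 9.64% of all) and 1 lower (2.13%, against 5.35%). With 100000 strict regions the AP-1 family genes had 13 gained and 7 lost.

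RUNX (TGTGGTT) was in 3.83% of all protein-coding windows, 12.2% of gained and 3.92% of lost. SOX (ACAATGG) was in 2.58%, 9.76% and 5.88%, and PBX-HOX (TGATTNAT) in 2.20%, 7.32% and 0%, which are 4 and 3 gained windows. TEAD (GGAATG) was in 12.5%, 24.4% and 27.5%, and MEIS (TGACAG) in 14.9%, 26.8% and 25.5%. NKX2 (CACTTNA) was in 9.07%, 17.1% and 11.8%, and CEBP (TTGCNNAA) in 8.83%, 17.1% and 15.7%. The letters AGATAA, bound by GATA factors, were in 8.22%, 9.76% and 15.7%. T-box letters (AGGTGTG) were in 4.42%, 0% and 9.80%. ETS (CCGGAAG) and KLF/SP (CCNCGCCC) letters, frequent in stable windows at 18.1% and 53.3%, were in 0% and 12.2% of the gained windows and 0% and 7.84% of the lost. In windows of other genes GATA letters were in 16.2% of all, 30.7% of gained and 14% of lost. With 41 and 51 windows, 1 window is about 2 percentage points, and a match is a description of letters only.

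Further motifs searched on both strands included FOX (TGTTTAC, in 2.91% of all protein-coding windows), OCT (ATGCAAA, 3.94%), homeobox (TAATTA, 3.60%), OTX (GGATTA, 5.59%), TCF/LEF (TTCAAAG, 3.78%) and the nuclear receptor site (AGGTCA, 12.0%). Also searched were the E-boxes CAGGTG (20.2%) and CATCTG (12.6%), NFY (CCAAT, 34.5%), CTCF (2.57%), TFAP2 (GCCNNNGGC, 27.2%) and MEF2 (2.32%). Rarer letters included GRHL (AACCNGTT, 1.68%), EBF (1.42%), RFX (0.449%), SMAD (GTCTAGAC, 0.234%) and NFI (0.0306%). A PBX-HOX match with C at its N can hold an AP-1 match, so these letters overlap.

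**Figure D5:**
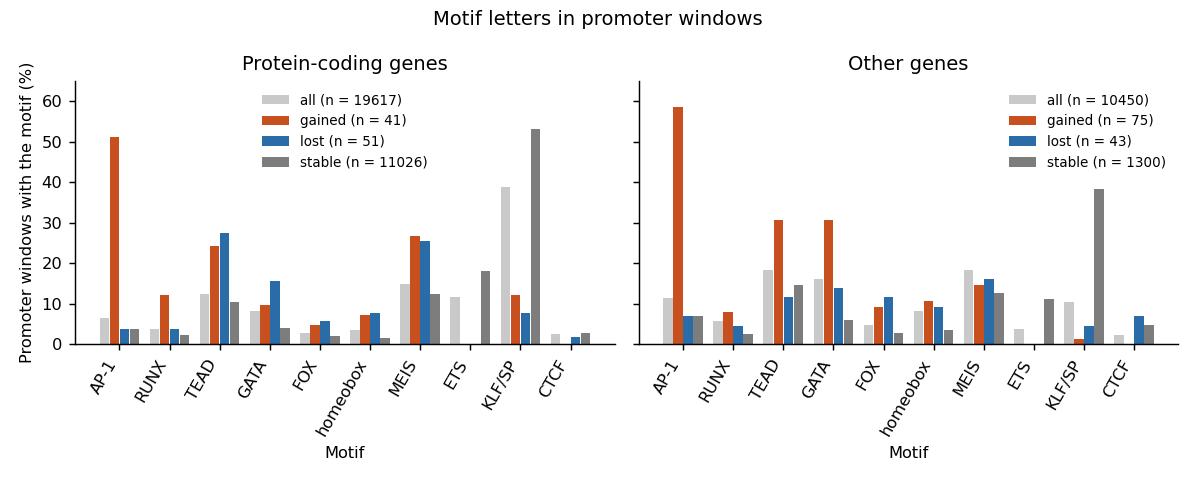
Percent of promoter windows (vertical axis) that hold the letters of 10 motifs, for all, gained, lost and stable windows, with protein-coding genes on the left and other genes on the right. In protein-coding windows AP-1 is in 51.2% of gained and 3.92% of lost, while ETS and KLF/SP letters are most frequent in stable windows (18.1% and 53.3%).

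Hairpins of microRNAs, short RNAs that repress messages matching their seed (bases 2 to 8), were also examined. Of 295 hairpins within 1 kb of a region strict in at least 1 of the 3 libraries, 19 (6.44%) lay near a gained and 8 (2.71%) near a lost region. The pair below are shown as well-known microRNAs from each group, chosen after their values were seen, with the seed in capitals.

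hsa-miR-375-3p: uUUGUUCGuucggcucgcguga

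hsa-let-7a-5p: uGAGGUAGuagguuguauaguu

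MIR375, known from endocrine and foregut epithelium, has its hairpin at chr2:219001645-219001708 on the minus strand. The region beside it (chr2:218999017-219000837) had no peak in hPFE. Its heights were 1.55 and 1.16 in the hAFE replicates, after 2.32 and 1.49 in hDE and 0.595 and 0.411 in hESC. It was the highest in hAFE of the 8 lost regions near hairpins. MIRLET7A2, one of the genes of let-7a, has its hairpin at chr11:122146522-122146593 on the minus strand, and a gained region within 1 kb (chr11:122145904-122146246) stood at 0.381 in hPFE with no peak in the other libraries. That height is the 10th percentile of gained regions, so it is among the weaker ones. The other gained regions near hairpins stood at 0.351 to 0.753.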

How the data were processed

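ATAC-seq peak lists of 7 libraries of H1 cells were used, 2 of hAFE and 1 of hPFE for the comparison. For the aligner and peak caller nothing is given in the sources used here. The build was hg38 and DiffBind was used, per the submitters' processing notes. Each library has its own list, not pooled. The deposited values of a peak are the authors' fold enrichment at the summit (a ratio to the local background), the −log10 p and −log10 q of the summit, and a score that the authors deposited for display and that was not used. The position of the summit was taken from the deposited lists.

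The cut sites at each summit and their local background were recovered from the deposited fold and −log10 p, which a Poisson tail reproduced within 0.001 for 100% of peaks, and the genome-wide background is the most frequent local value. This was tested on simulated data. Peaks of a library that overlapped were merged, the 50000 strongest by −log10 p were called strict, and strict regions of the 7 libraries were merged where they shared at least 1 bp, giving 129726 regions. Lists near a limit of 300000 peaks mean that a region without a peak may hold weak signal. Genes are the 19974 protein-coding genes of RefSeq GRCh38.p14. Its promoter table gave 30067 windows on chromosomes 1 to 22 and X after 1 of overlapping windows was kept, and 15812 protein-coding genes had a window.

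Samples were grouped by title, and no test was run, since hPFE is 1 library. Counting intervals are exact Poisson intervals at 95% and cover counting error only. Named genes were the 10 with the most gained and lost regions, the 8 with the strongest gained and lost regions within 1 kb of an end, the 2 with the most in each of 26 lists, and a list of fixed names, of which some are not reported here. Members and lists were chosen with earlier results of these data known. Other strictness rules, merging, overlap, scaling, distances and left-out hAFE replicates were tried. Python 3.11.15, numpy 2.4.6, pandas 2.3.3, scipy 1.17.1 and matplotlib 3.10.9 were used.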

Additional observations from a re-analysis of the deposited data

How the results depend on the processing

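Counts of regions moved with the definition of a strict region. Gained regions, 10959 as reported, numbered 3449 with 25000 strict regions per library, 31776 with 100000, 4470 with summits of at least 10 times the background and 26843 where −log10 q was 5 or more. Lost regions, 5418 as reported, numbered 1186, 20315, 8036 and 27802 under the same 4 settings, so that the last 2 turned the excess of gained over lost regions. Stable regions, 22762 as reported, numbered 12810 with 25000, 41620 with 100000 and 43062 by −log10 q. Leaving out 1 hAFE replicate gave 13217 to 13806 gained and 10026 to 11269 lost regions. Regions higher in hPFE, 6748 as reported, numbered 1302 without centring, 3627 at a limit of 3 times and 3980 from the deposited fold enrichment. Regions lower in hPFE, 3645 as reported, numbered 25877 without centring, 1179 at 3 times, and 6596 to 6906 with 1 hAFE replicate left out. Quantile normalization gave 6128 higher and 5116 lower. The share of gained regions with a peak in hDE was 17.8% for either and 6.25% for both hDE libraries, and of lost regions 80.1% and 62.7%. The share within 1 kb of a gene end was 1.83% of gained and 2.84% of lost regions, and within 5 kb 8.14% and 9.43%. Fewer or more regions enter by construction at other ranks, and for the other settings the cause was not tested. Of the counts for lists under other settings, 269 moved by over 1.5 times and 95 did not, and for named genes 550 and 780. No paired analysis was possible because hAFE and hPFE share only replicate number 1.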
